A study of Caenorhabditis elegans with 12 samples.

Results

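Wild-type C. elegans embryos were compared at the bean stage and at the 190-cell stage. The comparison rests on 4 of the 12 libraries of the series, chosen by their labels: 2 libraries of N2 embryos at the bean stage and 2 of N2 embryos at the 190-cell stage. N2 is the Bristol wild-type strain, and no allele, transgene or treatment distinguished the groups, so that stage is the difference between them. In each group a library was made from 50 whole embryos, grown at 20 °C on OP50 bacteria, taken from their mothers at the 2-cell stage and left to develop to the wanted stage. All somatic tissues and the germ line precursors were therefore pooled, and a lower level in a sample of this kind can stand for fewer cells of a type or for less RNA per cell, which cannot be told apart. Both groups carried the same batch label. The other 8 libraries are N2 embryos at the 2-fold stage and embryos of the strain MLC1800 at the 3 stages. MLC1800 carries 3 deletion alleles that together remove the complete miR-51 family, and its embryos are called miR-51Fam null here. As listed by the study, the strain also holds an extrachromosomal array with fluorescent markers that expresses 1 microRNA cluster of this family. The study calls the sequenced embryos null, but the sources used here do not tell if they were free of it. These 8 libraries entered the same statistical model and are used here only for values set beside the wild-type change. Polyadenylated mRNA was measured by QuantSeq, which gives 1 read near the 3′ end of a captured transcript, so the counts do not scale with transcript length.

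At the 190-cell stage the embryo is gastrulating: most cells still divide, and transcription factors are assigning them to the intestine, muscle, epidermis, pharynx and nervous system. By the bean stage most embryonic divisions are over, the epidermis has enclosed the embryo, and cells start to build the structures with which the body will elongate. Epidermal cells tighten their apical junctions and make the apical extracellular matrix and, later, the collagenous cuticle, muscle cells begin to assemble sarcomeres, and both tissues are anchored to a basement membrane between them. Actin bundles in the epidermis drive the first phase of elongation, and muscle contraction transmitted through hemidesmosome-like fibrous organelles drives the phase that follows.

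Reads assigned to genes numbered 4222545 and 1711096 in the 190-cell libraries and 1651557 and 2111405 in the bean libraries, over 8373, 9055, 7814 and 9373 genes detected. The share of zeros pointed to fewer molecules than reads, with an estimate of 116188 to 250705 molecules in the 4 libraries, so that 1 molecule was worth several CPM (counts scaled so that every library has the same total). A sum of 3 molecules over the 2 libraries of a stage, taken as the floor under which a level was not distinguishable from 0, came to 8.06 CPM at the 190-cell stage and 8.49 CPM at the bean stage. This floor and the intervals below cover counting error only. Across genes, Spearman's rho was 0.877 and 0.884 between replicates and 0.763 to 0.834 between libraries of different stages. The replicates differed by more than read sampling (chi-square per gene 40.8 and 18.6), and each was counted as 1 sample. The study describes the duplicates as independent, but neither it nor the labels say that they came from separate cultures, so the tests measure the spread between these samples, which may be technical. 190-cell replicate 1 stood apart in adult-type transcripts, with 0.492% of its reads in 6 vitellogenin (yolk protein) genes against 0.0537% in replicate 2 and 0.0254% and 0.0176% in the bean libraries. Major sperm protein genes were at or near 0 in all 4, and heat shock genes took 0.156% to 0.186% of the reads. For 2 markers the values went with the stage labels. end-1, a GATA factor of the endoderm precursor, had reads in both 190-cell libraries and 0 in both bean libraries. The cuticle collagen gene dpy-7 had the opposite pattern. The maternal mRNA pos-1 did not separate the stages, at 1056 and 333 CPM in the 190-cell libraries and 642 and 904 CPM in the bean libraries. Summed levels of the maternal genes below also overlapped, at 8505 and 2901 CPM and then 3770 and 4684 CPM.

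Of 12062 genes tested, 504 rose and 102 fell from the 190-cell to the bean stage (edgeR quasi-likelihood F test, Benjamini-Hochberg adjusted p under 0.05). These are 4.18% and 0.846% of the genes tested, and 5.02% together, the background against which each group of genes below is read. With counts scaled to estimated molecules the split was 482 higher and 259 lower. Both bean libraries lay above both 190-cell libraries for 17.6% of all genes tested and below them for 18.5%. These shares are the background for such counts in the lists below. The stages were separate in the called direction for 491 of the 504 higher genes and for all 102 lower genes. Of the genes that rose, 188 had no read at the 190-cell stage, and 56 did not reach 3 estimated molecules in any of the 4 libraries. Of those that fell, 28 had no read at the bean stage. All 14 alternative analyses called 210 of the genes that rose and 23 of those that fell. The number of lower genes was 39 without bean replicate 1. Where a list below had calls in one direction only, an unadjusted p under 0.05 in the other direction was seen in 0 to 4 genes of the list, and the DESeq2 Wald test called none there.

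The gene with the smallest p was ces-2 (WBGene00000469, chromosome I, 14961497 to 14965361, plus strand, build WBcel235), which encodes a bZIP transcription factor that promotes the death of sister cells of the NSM neurons. Its level was 0.206 and 0 CPM in the 190-cell libraries and 1384 and 1149 CPM in the bean libraries. With 1 read in both 190-cell libraries together, the pooled levels gave a ratio of 8199 (exact 95% counting interval from 1471 to 323911). The interval takes reads as independent, so that it is too narrow. Since the 190-cell level was under the floor, the size of the ratio is not established. Both limits hold for every ratio given below on 1 read. The edgeR log2 fold change was 12.68 (SE 0.74, adjusted p = 2.281e-12). At the 2-fold stage ces-2 was at 3.62 and 9.68 CPM. Among the 3 stages sampled in wild type, its level was thus high at the bean stage.

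The small heat shock gene hsp-12.1 (WBGene00011906, chromosome I, 10581538 to 10582615, minus strand) had no read at the 190-cell stage and 293 and 268 CPM at the bean stage, at least 34.8-fold higher against the floor (adjusted p = 1.055e-11). At the 2-fold stage it was at 1984 and 1342 CPM. A second member of its family, hsp-12.2, was at 0.206 and 2.98 CPM and then at 52.7 and 24.4 CPM (log2 fold change 5.07, SE 0.82, adjusted p = 0.0008252). Its value was 3.74 without 190-cell replicate 1, 7.26 without replicate 2 and 4.39 without bean replicate 1, and it was not called in the fit of the 4 libraries alone (adjusted p = 0.09204). In both genes the bean libraries lay above the 190-cell libraries. None of the 11 tested genes of the general heat shock and stress list was called by edgeR or by any alternative, DESeq2 included, and 1 had an unadjusted p under 0.05.

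Among the other leading genes, nsy-4, a claudin-like membrane protein needed for left-right asymmetry of the AWC olfactory neurons, was at 0 in both 190-cell libraries and at 303 and 156 CPM in the bean libraries, at least 28.5-fold higher (adjusted p = 2.838e-09). The bZIP gene atf-2 went from 0 in both libraries to 148 and 106 CPM, at least 15.7-fold higher (adjusted p = 1.166e-08). Y57G11C.31, for which no role is given here, went from 0 to 101 and 116 CPM, at least 13.5-fold higher (adjusted p = 1.024e-08). These 3 genes thus had no read at the 190-cell stage, and atf-2 was higher again at the 2-fold stage, at 500 and 385 CPM. dao-2 (WBGene00000928, chromosome II, 4562950 to 4563461, plus strand) was already present at the 190-cell stage, at 275 and 429 CPM, and reached 5025 and 4656 CPM in the bean libraries (log2 fold change 3.78, SE 0.34, adjusted p = 1.204e-08). It had the highest bean level of the 12 leading genes.

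**Figure D1:**
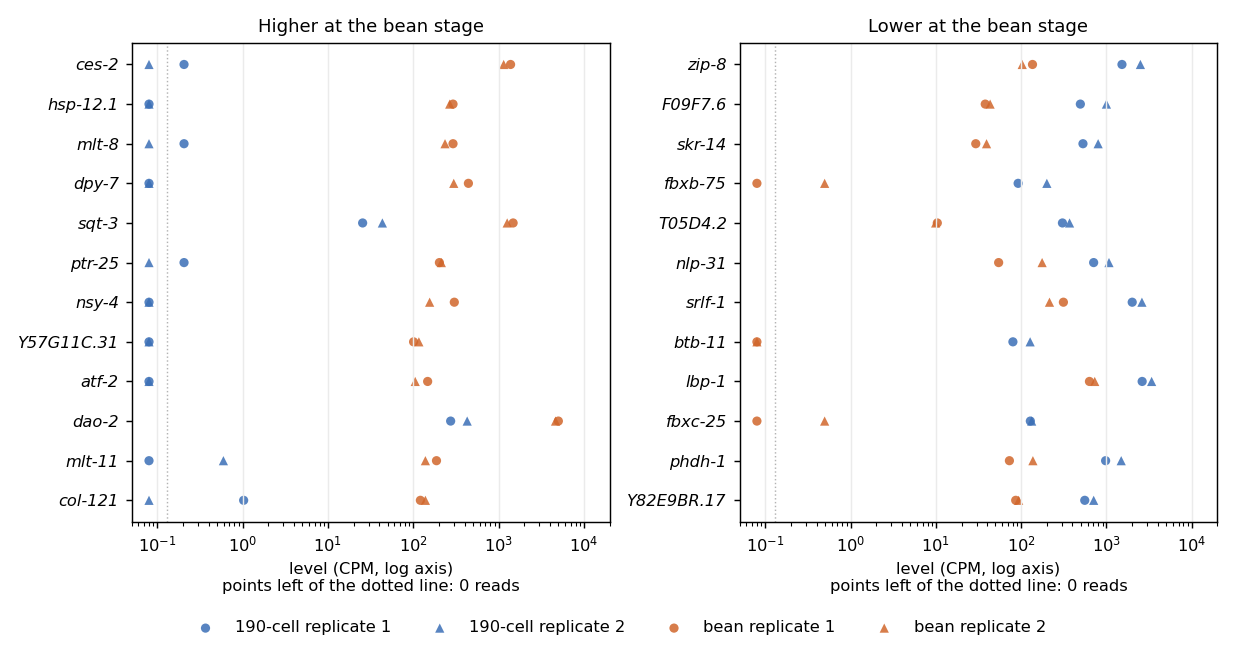
Levels in each of the 4 wild-type libraries (CPM, log axis) of the leading 12 genes in each direction, ranked by p among called genes at a mean of 50 CPM or more at their higher stage and with stages that do not overlap. Blue points are 190-cell and orange points bean libraries, circles and triangles are replicates 1 and 2, and points left of the dotted line had 0 reads. Every pair of points of one stage lies on one side of the other stage, as the choice required, for instance 1384 and 1149 CPM for ces-2 at the bean stage and 1520 and 2501 CPM for zip-8 at the 190-cell stage.

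The apical extracellular matrix is the layer on the outer face of the epidermis that becomes the cuticle. Of 32 tested genes for apical matrix proteins and collagen processing, 17 rose and none fell. The median log2 fold change of the 30 with reads was 3.38, or 2.87 over 27 genes with those absent from a stage set at their bound, against −0.03 over all genes with reads. The summed level of the list was 2789 and 4824 CPM in the 190-cell libraries and 15275 and 15175 CPM in the bean libraries, which did not overlap. The count of higher genes was 15 to 18 over the 14 alternatives. The 17 genes were mlt-8, dpy-7, sqt-3, mlt-11, dpy-17, dpy-3, dpy-14, noah-2, phy-2, dpy-2, fbn-1, sym-1, wrt-10, dex-1, dpy-18, lpr-1 and let-653. Of these, lpr-1 had no read in 3 of the 4 libraries and 5.97 CPM in bean replicate 2, a bean mean below the floor. They hold collagens of the cuticle (dpy-7, sqt-3, dpy-17, dpy-3, dpy-14 and dpy-2), the catalytic subunits of prolyl 4-hydroxylase that modify collagens in the endoplasmic reticulum (phy-2 and dpy-18), and matrix or secreted proteins that act before the cuticle (noah-2, fbn-1, sym-1, dex-1, lpr-1 and let-653).

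The collagen gene sqt-3 (WBGene00005018, chromosome V, 12352745 to 12354320, plus strand) was at 25.5 and 43.5 CPM in the 190-cell libraries and at 1482 and 1263 CPM in the bean libraries, 34.5 ± 12.7 and 1372 ± 155 CPM (SD, n = 2). Its level thus rose 39.8-fold (log2 fold change 5.33, SE 0.40, adjusted p = 2.306e-10), a difference far beyond the spread of either pair, and reached 3815 and 2731 CPM at the 2-fold stage. dpy-7 (WBGene00001069, chromosome X, 7536467 to 7537792, minus strand), a collagen of the cuticle furrows, had no read in either 190-cell library and 443 and 299 CPM in the bean libraries, at least 46.0-fold higher (adjusted p = 2.089e-11). mlt-8 (WBGene00021095, chromosome II, 569210 to 572110, minus strand), a gene needed for moulting, was at 0.206 and 0 CPM and then at 293 and 236 CPM, a pooled ratio of 1708 with a counting interval of 306 to 67546 on 1 read at the 190-cell stage (adjusted p = 1.72e-11). mlt-11 (WBGene00012186, chromosome V, 20667205 to 20678537, plus strand), another moulting gene with protease inhibitor domains, was at 0 and 0.596 CPM and then at 187 and 139 CPM, a ratio of 1050 with an interval of 188 to 41534 on 1 read (adjusted p = 1.935e-08). For mlt-8 and mlt-11 the 190-cell level was under the floor, so the size of these ratios is not established. Genes known for the larval moult were thus among those with the smallest p in these embryos.

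Most collagens named by number were not called. Of 85 tested genes named col, 2 rose and none fell. col-76 was at 4.74 and 0.596 CPM and then at 105 and 165 CPM (log2 fold change 5.41, SE 0.60, adjusted p = 3.372e-07), 7.78 without 190-cell replicate 1 and 4.80 without replicate 2. The other was col-121 (WBGene00000695, chromosome IV, 9394873 to 9396218, minus strand), at 1.03 and 0 CPM and then at 121 and 139 CPM (log2 fold change 7.43, SE 0.69, adjusted p = 2.394e-08). Without 190-cell replicate 1, which held all its reads at that stage, the fitted value was 11.44 and is no bound. The gene overlaps daf-15 on the opposite strand, and since the strand setting of the counting is not stated, reads of the 2 genes may have been exchanged. The share of col genes called higher was below the background of 4.18%. Their summed level was 891 and 151 CPM in the 190-cell libraries and 521 and 711 CPM in the bean libraries, so that the stages overlapped, with 190-cell replicate 1 the highest.

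Genes of the basement membrane showed 8 calls higher and none lower among 23 tested, with a median log2 fold change of 2.71, or 2.06 over 19 genes with bounds. The called genes were agr-1, mig-6, let-2, unc-52, lam-3, nid-1, gon-1 and ost-1. They encode agrin, papilin, a chain of type IV collagen, perlecan, a laminin alpha chain, nidogen, a metalloprotease and SPARC. epi-1 of this list, shown outside the rule for naming genes, went the other way without a call. It was at 287 and 514 CPM and then at 193 and 134 CPM (log2 fold change −1.29, edgeR adjusted p = 0.1724). In the list 2 genes were lower at an unadjusted p under 0.05. The fits of the 4 libraries alone and of counts scaled to estimated molecules each called 1 lower. agr-1 (WBGene00018304, chromosome II, 6760674 to 6775176, minus strand) went from no read at the 190-cell stage to 56.3 and 48.8 CPM, at least 6.52-fold higher (adjusted p = 8.929e-07). mig-6 (WBGene00003242, chromosome V, 7827217 to 7842390, plus strand) was at 24.7 and 42.9 CPM and then at 221 and 278 CPM (log2 fold change 2.90, SE 0.44, adjusted p = 4.881e-05). let-2 (WBGene00002280, chromosome X, 16380597 to 16389340, minus strand) was at 38.5 and 9.53 CPM and then at 249 and 173 CPM (log2 fold change 3.08, SE 0.48, adjusted p = 5.976e-05), 4.54 without 190-cell replicate 1 and 2.44 without replicate 2. The mRNA of mig-6 was thus present in both 190-cell libraries. For let-2 the 190-cell level came mainly from replicate 1, the library with more yolk mRNA. With all libraries, the rise of both genes was smaller than that of the cuticle collagen gene sqt-3. The list had 6 to 10 higher calls over the alternatives.

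Of 33 tested genes for epidermal junctions, hemidesmosomes and elongation, 8 rose (ajm-1, ifa-3, vab-9, let-805, dlg-1, sax-7, sma-1 and vab-10) and none fell. The median of the list was 0.61. Both bean libraries lay above both 190-cell libraries for 17 of the 33 genes, against 17.6% of all genes tested. ajm-1 (WBGene00000100, chromosome X, 9082946 to 9113619, plus strand), which encodes a coiled-coil protein of the apical junction, was at 44.7 and 22.6 CPM and then at 533 and 551 CPM (log2 fold change 3.99, SE 0.46, adjusted p = 5.61e-07), 4.65 without 190-cell replicate 1. ifa-3 (WBGene00002051, chromosome X, 16267197 to 16270069, minus strand), an intermediate filament gene, had no read and then 42.9 and 72.2 CPM, at least 7.13-fold higher (adjusted p = 5.082e-06). vab-9 (WBGene00006875, chromosome II, 8636233 to 8637715, minus strand), which encodes a claudin-like junction protein, had no read and then 20.2 and 22.4 CPM, at least 2.64-fold higher (adjusted p = 6.051e-05). The remaining called members include let-805, which encodes myotactin of the epidermal face towards muscle, and the spectraplakin gene vab-10. mup-4, a matrix receptor of the face towards the cuticle, was at 8.65 and 0 CPM and then at 18.4 and 13.4 CPM without a call (adjusted p = 0.547). In vab-10 the level was 60.7 and 93.6 CPM and then 232 and 224 CPM (log2 fold change 1.57, adjusted p = 0.02433), values shown because the study examined its protein and not because of the rule for naming genes. The list had 8 higher calls but 5 without bean replicate 1.

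Genes of the muscle sarcomere and of muscle attachment rose in 9 of 45 cases and fell in none (tni-1, act-4, myo-3, tnt-3, dys-1, deb-1, pat-2, unc-68 and pat-12). Of these, deb-1 had no read and then 11.6 and 1.49 CPM, a bean mean below the floor. The median was 1.43, or 1.32 with bounds, and the summed level of the list was 3173 and 2693 CPM in the 190-cell libraries and 8340 and 8038 CPM in the bean libraries. tni-1 (WBGene00006584, chromosome X, 11375887 to 11377470, minus strand), a troponin I gene, was at 11.1 and 1.79 CPM and then at 170 and 178 CPM (log2 fold change 4.60, SE 0.55, adjusted p = 1.43e-06), 6.64 without 190-cell replicate 1 and 3.94 without replicate 2. The actin gene act-4 (WBGene00000066, chromosome X, 4960621 to 4964413, plus strand) was at 683 and 780 CPM and then at 4065 and 3420 CPM (log2 fold change 2.36, SE 0.31, adjusted p = 5.371e-06). Reads of its near-identical paralogs could have been lost as multiply mapped, so its level is uncertain. myo-3 (WBGene00003515, chromosome V, 12226817 to 12234343, minus strand), the myosin heavy chain at the centre of thick filaments, was at 1.03 and 0 CPM and then at 40.4 and 20.4 CPM (log2 fold change 5.35, SE 0.84, adjusted p = 8.536e-05), and a fitted 9.34 without 190-cell replicate 1, which held its only reads at that stage. unc-54, the main body wall muscle myosin, was not called, with 94.7 and 9.53 CPM at the 190-cell stage and 31.8 and 44.3 CPM at the bean stage (adjusted p = 0.9428). There the 2 stages overlapped, and the high value came from the library that also held more yolk mRNA, whose part in it was not tested. The list had 5 higher calls without bean replicate 1 and 4 to 15 over all alternatives.

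The regulators that specify muscle had no call. None of hlh-1, hnd-1 and unc-120 was called by edgeR with all libraries or by DESeq2, and 1 of them had an unadjusted p under 0.05. In the edgeR fit of the 4 libraries alone hlh-1 and hnd-1 were called lower, as they were with counts scaled to estimated molecules (adjusted p = 0.007153 and 0.01189), and hlh-1 also with the replicate block. The MyoD homologue hlh-1 (WBGene00001948, chromosome II, 4518574 to 4522528, plus strand) was at 112 and 137 CPM in the 190-cell libraries and at 8.57 and 30.9 CPM in the bean libraries, 6.31-fold apart without overlap (log2 fold change −2.65, SE 0.89, adjusted p = 0.09503). The Hand homologue hnd-1 was at 176 and 204 CPM and then at 75.3 and 29.9 CPM (adjusted p = 0.53). The SRF homologue unc-120 was at 125 and 98.3 CPM and then at 135 and 119 CPM (adjusted p = 1), so its stages overlapped.

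Among 19 tested regulators of epidermal fate, 2 rose, or 1 when either bean library was left out. blmp-1 (WBGene00003847, chromosome I, 10409302 to 10414773, plus strand), a BLIMP-1 zinc finger factor, was at 0 and 2.38 CPM and then at 260 and 201 CPM (log2 fold change 8.20, SE 0.85, adjusted p = 5.347e-07), or a fitted 12.41 without 190-cell replicate 2, which held its only reads at that stage. eff-1, which encodes the fusogen that merges epidermal cells, had no read and then 3.06 and 5.47 CPM, below the floor of 8.49 CPM, and its call was lost when any 1 of the 4 libraries was left out (adjusted p = 0.02433 with all, 0.0515 to 0.276 without one). The GATA factor elt-3 was at 0 and 12.5 CPM and then at 173 and 111 CPM without being called (log2 fold change 4.68, SE 1.48, adjusted p = 0.1523), but it was called without 190-cell replicate 1 (adjusted p = 0.01686) or 2 (adjusted p = 4.15e-06). elt-1, the GATA factor that specifies the epidermis, went the other way without a call, from 96.3 and 142 CPM to 30.6 and 26.9 CPM (adjusted p = 0.3079), as did the T-box gene tbx-8, from 58.3 and 72.1 CPM to 1.22 and 3.48 CPM (adjusted p = 0.1891). lin-26, which maintains epidermal fate, was at 180 and 144 CPM and then at 212 and 226 CPM (adjusted p = 0.8153). The epidermal regulators thus held values in both directions, most of them short of the threshold. The fit of the 4 libraries alone and that with counts scaled to estimated molecules each called 3 of the regulators lower, elt-1 (lowest adjusted p = 0.029) and tbx-8 (0.007775) among them, and the higher calls numbered 1 to 5 over the alternatives.

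Regulators of neuronal fate included 7 genes that rose (zag-1, unc-3, lin-11, unc-86, egl-46, unc-42 and hlh-3) and 2 that fell (ztf-6 and ceh-36) among 30 tested. zag-1 (WBGene00006970, chromosome IV, 3855843 to 3861569, plus strand), a ZEB-type factor, was at 0 and 0.596 CPM and then at 80.8 and 75.6 CPM, a ratio of 510 with a counting interval of 90.7 to 20199 on 1 read (adjusted p = 8.018e-06). The 190-cell level of zag-1 was under the floor, so the size of that ratio is not established. unc-3, the COE factor of cholinergic motor neurons, had no read and then 28.2 and 32.3 CPM, at least 3.75-fold higher (adjusted p = 0.0003676). The LIM homeobox gene lin-11 had no read and then 39.8 and 20.9 CPM, at least 3.77-fold higher (adjusted p = 0.006059), a call lost without 190-cell replicate 1 (adjusted p = 0.07642). Without that library the list had 2 higher calls. The Otx-type homeobox gene ceh-36 fell from 21.4 and 23.8 CPM to 0 in both bean libraries (at least 2.67-fold lower, adjusted p = 0.04779), and ztf-6 from 198 and 301 CPM to 88.8 and 43.3 CPM (log2 fold change −1.92, SE 0.56, adjusted p = 0.04134). Leaving out any 1 of the 4 libraries ended the call of ceh-36, and leaving out either 190-cell library or bean replicate 2 ended that of ztf-6. Both bean libraries lay above both 190-cell libraries for 14 of the 30 regulators and below them for 5. Over all genes tested these shares were 17.6% and 18.5%, so the count below was near the background.

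Genes of differentiated neurons are read against the background of 4.18% called higher. The share was below it in the synaptic list and above it in the cilia list. Of 31 tested genes for synaptic and neuronal function 1 rose, unc-44, an ankyrin of axons, from 51.3 and 129 CPM to 255 and 261 CPM (log2 fold change 1.53, SE 0.44, adjusted p = 0.03896), and it was not called without 190-cell replicate 1 or either bean library. None of 19 tested FMRFamide-like peptide genes was called by edgeR or DESeq2, and 1 had an unadjusted p under 0.05. Of 38 tested genes of cilia, 3 rose (dyf-7, tbb-4 and dyf-5), or 1 in the fit of the 4 libraries alone. dyf-7, which encodes a matrix protein that anchors sensory dendrites as the neurons move away, was at 0.206 and 0 CPM and then at 38.0 and 65.2 CPM, a ratio of 346 with a counting interval of 61.4 to 13749 on 1 read (adjusted p = 4.704e-05). With a dyf-7 level under the floor at the 190-cell stage, the size of the ratio is not established. tbb-4, a tubulin of ciliated neurons, was at 0 and 6.55 CPM and then at 87.0 and 68.2 CPM (log2 fold change 4.76, SE 1.14, adjusted p = 0.009417). Without 190-cell replicate 1 the value was 3.63, and without replicate 2, which held its only reads at that stage, a fitted 10.84. It was not called in the fit of the 4 libraries alone (adjusted p = 0.1037) or of the 6 wild-type libraries. dyf-5, a kinase of cilia, had no read and then 11.6 and 5.47 CPM, near the floor (adjusted p = 0.01771), and was not called without 190-cell replicate 1.

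In the pharynx list 2 of 16 tested genes rose. peb-1 (WBGene00003968, chromosome X, 2211051 to 2218988, plus strand), a DNA-binding factor of the pharynx, had no read and then 26.3 and 22.4 CPM, at least 3.02-fold higher (adjusted p = 1.241e-05). ceh-22 (WBGene00000445, chromosome V, 10671918 to 10675769, plus strand), the NK-2 homeobox factor of pharyngeal muscle, had no read and then 54.5 and 50.8 CPM, at least 6.53-fold higher (adjusted p = 3.353e-05). pha-4, the FoxA factor that specifies the organ, was at 121 and 222 CPM and then at 268 and 273 CPM (adjusted p = 0.6399). The organ regulator was thus present at both stages, and the 2 genes that rose had no read at the first.

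None of 24 tested intestinal genes was called, and the median of their log2 fold changes was −0.01 (0.25 with bounds). elt-2, the GATA factor that maintains the intestine, was at 15.2 and 95.9 CPM and then at 38.0 and 60.7 CPM (adjusted p = 1). elt-7 was at 169 and 151 CPM and then at 50.8 and 55.2 CPM (adjusted p = 0.6129), a 3.02-fold difference that did not pass the test despite stages that did not overlap. In this list 2 genes were lower at an unadjusted p under 0.05, DESeq2 called none, and the alternatives made 0 or 1 call in each direction.

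**Figure D2:**
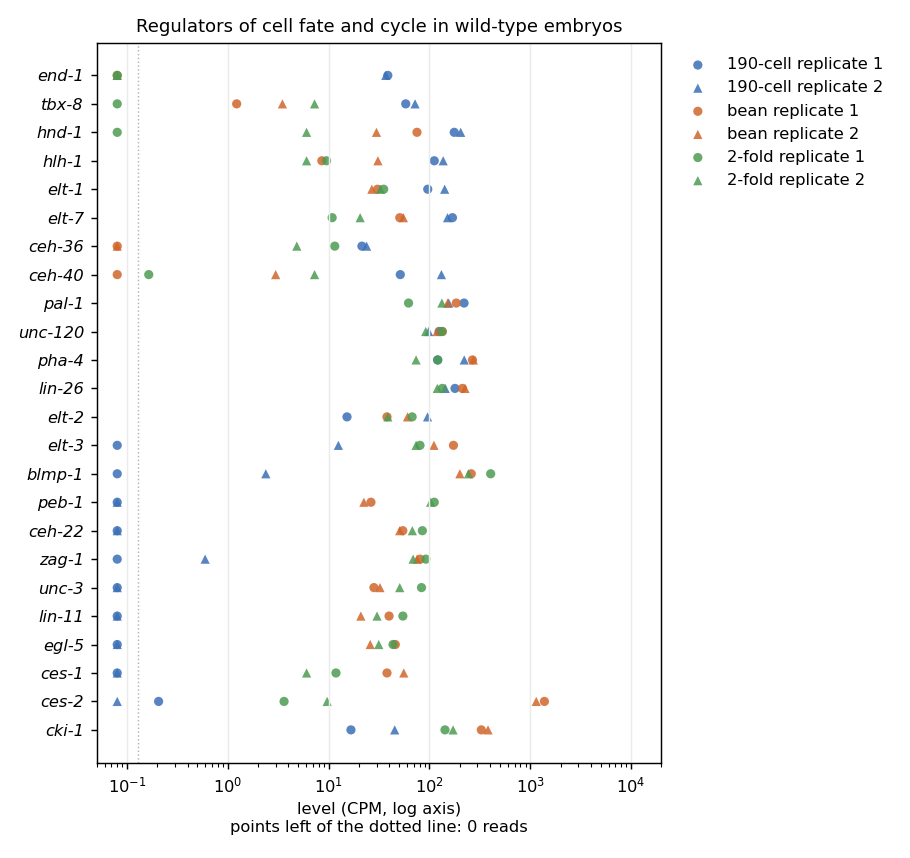
Levels (CPM, log axis) of regulators of cell fate, cell death and the cell cycle in the 6 wild-type libraries, with the 2-fold stage added in green. Circles and triangles are replicates 1 and 2, and points left of the dotted line had 0 reads. end-1 was at 38.7 and 36.9 CPM at the 190-cell stage and at 0 later, whereas peb-1, ceh-22, unc-3, lin-11 and egl-5 were at 0 at the 190-cell stage and above 20 CPM in both bean libraries.

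Besides ces-2, the list for programmed cell death and engulfment held 1 more gene that rose among 21 tested, the Snail-type gene ces-1, which ces-2 is known to repress in the NSM lineage. ces-1 (WBGene00000468, chromosome I, 8633897 to 8636169, plus strand) had no read at the 190-cell stage and 38.0 and 55.7 CPM at the bean stage, at least 5.81-fold higher (adjusted p = 0.02501), and its call was lost when any 1 of the 4 libraries was left out (adjusted p 0.0557 to 0.199). The gene overlaps cpn-1 on the opposite strand. Both genes of this pair were thus higher at the bean stage in whole embryos, which does not show whether they were in the same cells. The caspase gene ced-3 was at 122 and 95.3 CPM and then at 77.2 and 58.2 CPM (adjusted p = 0.8378), and the BH3 gene egl-1 at 11.3 and 13.1 CPM and then at 16.53 and 23.4 CPM (adjusted p = 0.9324). Of 6 tested Hox genes 1 rose, the posterior gene egl-5, from no read to 45.9 and 25.9 CPM, at least 4.45-fold higher (adjusted p = 0.00257), and without 190-cell replicate 2 there were 2 Hox calls.

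The cyclin-dependent kinase inhibitor gene cki-1 (WBGene00000516, chromosome II, 7811240 to 7812105, plus strand), which holds cells out of the cycle, was at 16.7 and 45.3 CPM and then at 328 and 382 CPM (log2 fold change 3.54, SE 0.59, adjusted p = 0.0001607). It was 11.4-fold higher at the bean stage and the call held under all 14 alternatives, with a log2 fold change of 4.39 without 190-cell replicate 2. At the 2-fold stage it was at 143 and 172 CPM. It was the 1 gene called among 11 tested genes for cell cycle exit.

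Genes for DNA replication and mitosis lay lower at the bean stage as lists, although almost none passed the test on its own. Among 40 tested replication genes none was called by edgeR, while both bean libraries lay below both 190-cell libraries for 28 of them and above for none. Over all genes tested, 18.5% lay below and 17.6% above in this way. The median log2 fold change of the replication genes was −1.12. Their summed level was 7569 and 10320 CPM in the 190-cell libraries and 3913 and 4799 CPM in the bean libraries. The helicase gene mcm-7 was at 788 and 1201 CPM and then at 356 and 417 CPM (log2 fold change −1.36, SE 0.50, adjusted p = 0.1563), and pcn-1, the sliding clamp of the polymerase, at 1020 and 1168 CPM and then at 454 and 606 CPM (log2 fold change −1.05, SE 0.83, adjusted p = 0.6948). cye-1, which encodes cyclin E, was at 76.6 and 90.0 CPM and then at 26.3 and 62.2 CPM (adjusted p = 0.8024). At an unadjusted p under 0.05 there were 5 lower replication genes. Over the alternatives 0 to 9 replication genes were called lower, with 0 by DESeq2, 9 in the fit of the 4 libraries alone and 8 with counts scaled to estimated molecules.

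Of 75 tested mitosis genes 1 fell, the kinesin-13 gene klp-7, from 103 and 34.6 CPM to 6.74 and 8.96 CPM (log2 fold change −3.12, SE 0.87, adjusted p = 0.02808), and its call was lost without 190-cell replicate 1 or either bean library. The median of the list was −0.999. Both bean libraries lay below both 190-cell libraries for 48 genes and above for 3, against 18.5% and 17.6% of all genes tested. The summed level of the list was 14208 and 17193 CPM and then 8087 and 8871 CPM. Over the alternatives 0 to 10 were called lower. In the histone list 1 gene rose and 1 fell among 31 tested. his-71, a histone H3.3 gene whose product is deposited outside of replication, was at 128 and 161 CPM and then at 438 and 465 CPM (log2 fold change 1.64, SE 0.39, adjusted p = 0.007617), with an adjusted p of 0.05038 without 190-cell replicate 1. The linker histone gene his-24 fell from 7064 and 10872 CPM to 3870 and 4068 CPM (log2 fold change −1.18, SE 0.34, adjusted p = 0.03733), and lost its call without 190-cell replicate 2 or either bean library. his-72, also a histone H3.3 gene and at higher levels than his-71, went the other way without a call. It was at 3076 and 4463 CPM and then at 2085 and 2189 CPM (log2 fold change −0.82, edgeR adjusted p = 0.2284). Histone genes share sequence, so reads between them may have been lost as multiply mapped.

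Cytosolic ribosomal protein genes formed the list with the highest share of calls. Of 73 tested, 63 rose and none fell, and both bean libraries lay above both 190-cell libraries for 72. The median log2 fold change was 1.38 and the largest 1.98, so that the change was broad and moderate. The list held 5.67% and 6.63% of all assigned reads in the 190-cell libraries and 14.6% and 15.5% in the bean libraries. rpl-30 (WBGene00004444, chromosome I, 10436254 to 10436888, plus strand) was at 494 and 700 CPM and then at 2174 and 2439 CPM (log2 fold change 1.95, SE 0.33, adjusted p = 0.0002204), rpl-29 at 1014 and 1857 CPM and then at 4032 and 6424 CPM (1.86, SE 0.32, adjusted p = 0.0002684), and rps-25 at 1187 and 1955 CPM and then at 5225 and 5280 CPM (1.74, SE 0.31, adjusted p = 0.0003788). The number of calls was 35 without 190-cell replicate 1, 40 without bean replicate 1 and 40 with TMMwsp scaling, a version of TMM for tables with many zeros that moved the median of all genes with reads from −0.03 to −0.19.

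**Figure D3:**
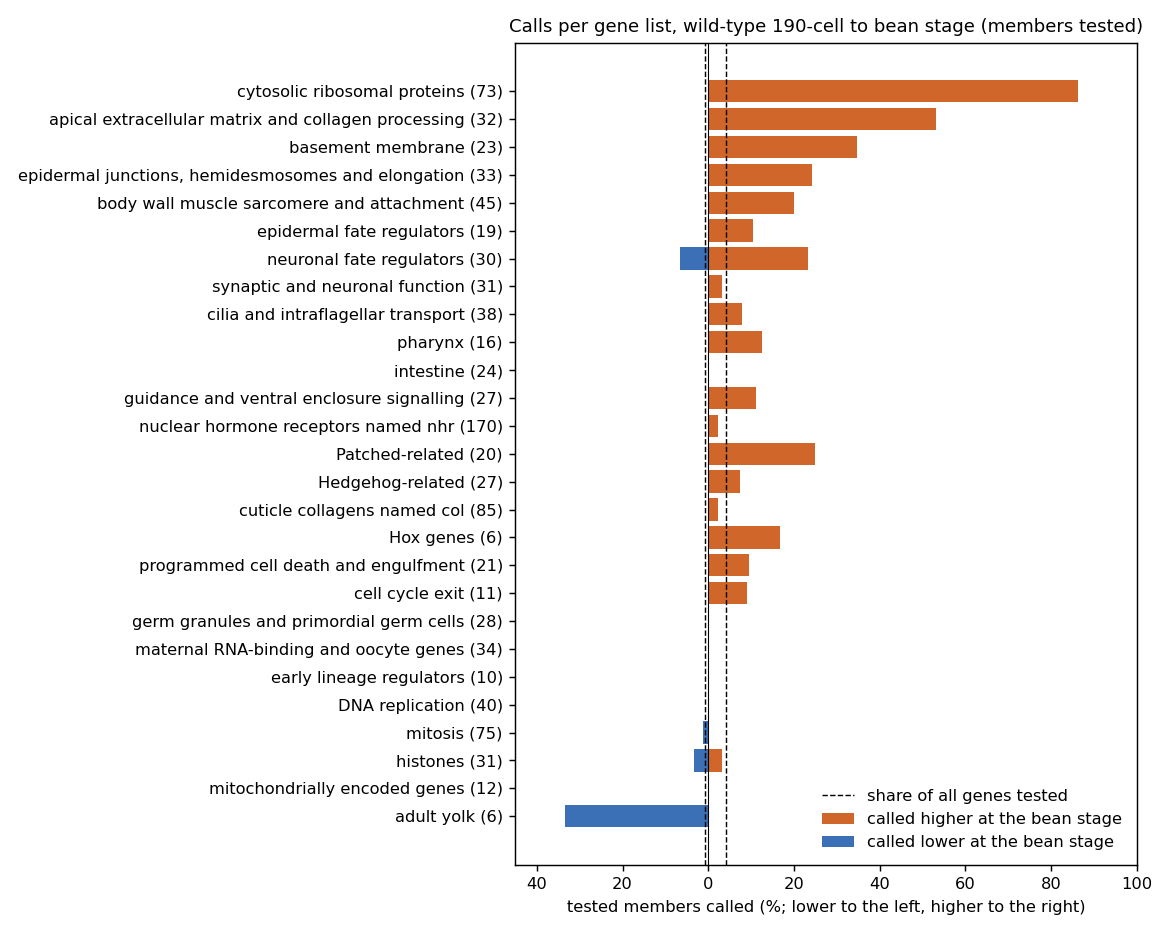
Percentage of the tested members of 27 of the gene lists called higher (orange, to the right) or lower (blue, to the left) at the bean stage, with the number tested in brackets and dashed lines at the 4.18% and 0.846% of all genes tested. Ribosomal protein genes (63 of 73) and apical matrix genes (17 of 32) have the longest bars to the right among the lists drawn, and the bar of adult yolk genes to the left stands for 2 of 6.

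**Figure D4:**
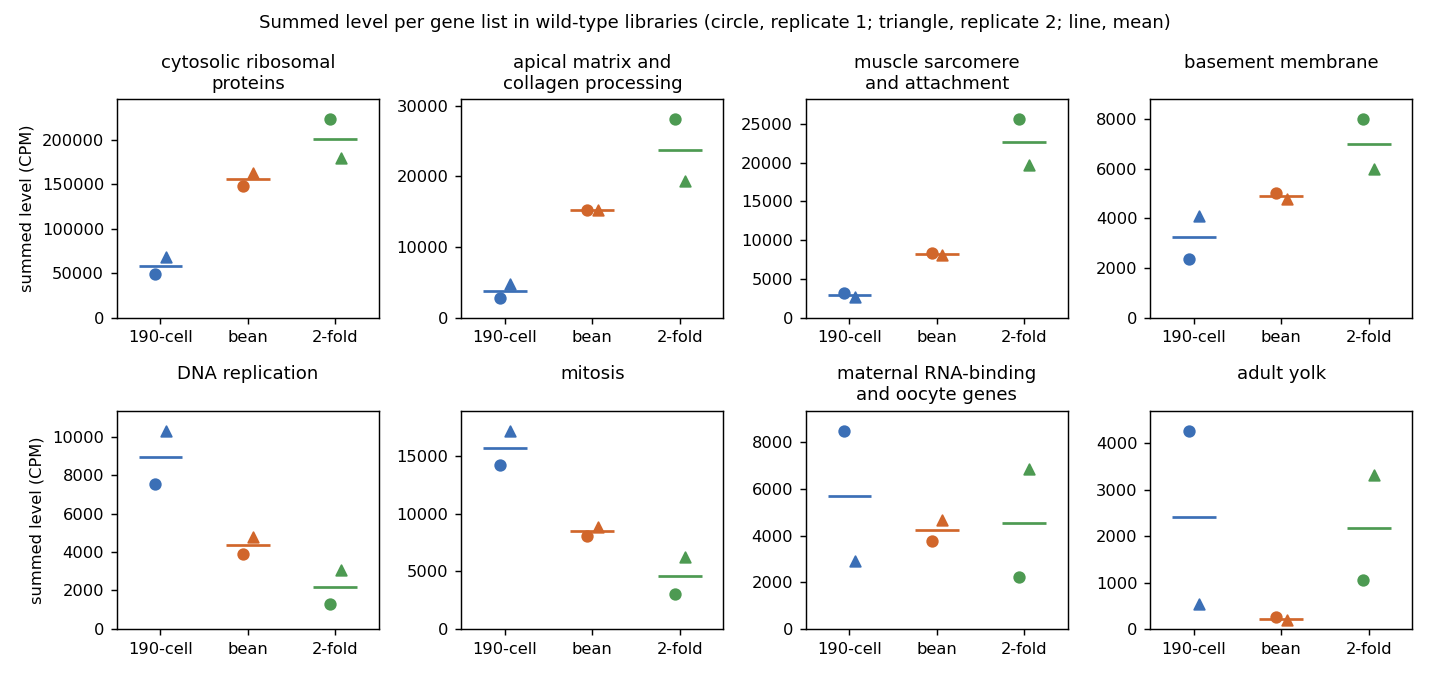
Summed level of 8 gene lists (CPM, linear axes from 0) in the wild-type libraries at the 190-cell, bean and 2-fold stages. Circles and triangles are replicates 1 and 2 and the lines are means of 2. The apical matrix list was at 2789 and 4824 CPM at the 190-cell stage and at 15275 and 15175 CPM at the bean stage, and in the maternal and yolk lists 190-cell replicate 1 lies far above replicate 2.

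Early lineage regulators, which include the short-lived factors that give blastomeres their fates, had no call among 10 tested, with a median log2 fold change of −4.55, or −1.88 over 9 genes with bounds. Both bean libraries lay below both 190-cell libraries for 7 of the 10 and above for none, against 18.5% and 17.6% of all genes tested. end-1 (WBGene00001310, chromosome V, 13985128 to 13987074, plus strand) was at 38.7 and 36.9 CPM and had no read at the bean stage, at least 4.46-fold lower (adjusted p = 0.1281). pal-1, the Caudal homologue, did not follow it, with 221 and 155 CPM and then 185 and 152 CPM (adjusted p = 1). At an unadjusted p under 0.05 there were 5 lower genes in the list, and the alternatives called 0 to 4 lower, with 0 by DESeq2 and 4 in the fit of the 4 libraries alone.

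Maternal genes for RNA-binding and oocyte proteins had no call among 34 tested in edgeR, 1 lower by DESeq2, 1 lower at an unadjusted p under 0.05 and 0 to 4 lower over the alternatives. spn-4 was at 1318 and 356 CPM and then at 438 and 646 CPM (adjusted p = 0.9729), and pos-1 at 1056 and 333 CPM and then at 642 and 904 CPM (adjusted p = 1). In both genes 190-cell replicate 1 was the highest library and replicate 2 the lowest. The summed level of the list was 8505 and 2901 CPM at the 190-cell stage and 3770 and 4684 CPM at the bean stage, so the stages overlapped. None of 28 tested genes of germ granules and primordial germ cells was called by edgeR, DESeq2 or at an unadjusted p under 0.05, with nos-2 at 341 and 123 CPM and then at 124 and 205 CPM (adjusted p = 1).

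The 6 vitellogenin genes, which are made by the adult intestine, all lay lower in both bean libraries, and 2 fell. vit-3 was at 702 and 67.9 CPM and then at 3.67 and 9.95 CPM (log2 fold change −5.79, SE 1.07, adjusted p = 0.004753), and vit-4 at 514 and 87.6 CPM and then at 14.7 and 24.4 CPM (log2 fold change −3.94, SE 1.03, adjusted p = 0.04788). Without 190-cell replicate 1 the change was −3.23 for vit-3 (adjusted p = 0.03181) and −2.09 for vit-4 (adjusted p = 0.4531). Leaving out either bean library also ended both calls, and the alternatives called 0 to 6 yolk genes lower. vit genes are near-identical in part, so their levels are uncertain, and the summed level of the list in the 2-fold libraries, 1053 and 3317 CPM, was above both bean libraries.

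Among the genes that fell, zip-8 (WBGene00017755, chromosome III, 6478955 to 6481243, plus strand), a bZIP gene, had the smallest p. It was at 1520 and 2501 CPM at the 190-cell stage and at 136 and 103 CPM in the bean libraries, 16.8-fold lower (log2 fold change −4.07, SE 0.49, adjusted p = 1.176e-06). F09F7.6 (WBGene00017303) was at 494 and 999 CPM and then at 38.0 and 43.3 CPM (log2 fold change −4.20, SE 0.53, adjusted p = 2.892e-06), and T05D4.2 (WBGene00011475) at 305 and 369 CPM and then at 10.4 and 9.95 CPM (−5.04, SE 0.75, adjusted p = 4.498e-05). For neither gene is a role given here. The pairs of both stages were close together in all 3 genes compared with the distance between stages.

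srlf-1 was at 2004 and 2605 CPM and then at 313 and 215 CPM (log2 fold change −3.13, SE 0.48, adjusted p = 0.0001364), Y82E9BR.17 at 557 and 709 CPM and then at 86.3 and 93.6 CPM (−2.81, SE 0.51, adjusted p = 0.0004001), and phdh-1 at 978 and 1489 CPM and then at 72.9 and 137 CPM (−3.55, SE 0.57, adjusted p = 0.0003663). phdh-1 overlaps tag-10 on the opposite strand. nlp-31, a gene for antimicrobial neuropeptide-like peptides, was at 708 and 1071 CPM and then at 54.5 and 176 CPM (−2.94, SE 0.48, adjusted p = 0.0001182), −2.34 without bean replicate 1 and −3.99 without replicate 2. In miR-51Fam null embryos the stage change of nlp-31 was 0.09 (adjusted p = 1). The difference between genotypes was 3.035 (SE 0.66, adjusted p = 0.05545 for the interaction term in edgeR), just short of a call. The gene belongs to a cluster of similar genes whose reads may be exchanged.

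Several of the leading lower genes belong to families of protein turnover, and these families were drawn up after the values had been seen, so their counts are a description. SKR proteins are relatives of Skp1 and F-box proteins are the adaptors that bind them in SCF ubiquitin ligases. skr-14 (WBGene00004820, chromosome V, 4421069 to 4421575, minus strand) was at 530 and 799 CPM and then at 29.4 and 39.3 CPM (log2 fold change −4.27, SE 0.60, adjusted p = 2.612e-05). Its neighbour skr-7 (chromosome V, 4422427 to 4423011, plus strand) was at 1331 and 1537 CPM and then at 136 and 79.6 CPM (−3.73, SE 0.61, adjusted p = 0.0007444), and skr-12 at 79.3 and 94.2 CPM and then at 0 in both libraries (at least 10.2-fold lower, adjusted p = 0.001543). Of 18 tested Skp1-related genes 4 fell and none rose, skr-10 being the other, and the alternatives called 4 to 8 lower. Their near-identical copies make the single levels uncertain.

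Of 168 tested F-box genes 8 fell and 3 rose, and both bean libraries lay below both 190-cell libraries for 67 and above for 8. Over all genes tested, 18.5% lay below and 17.6% above in this way. The median log2 fold change of the family was −3.03, or −1.12 over 112 genes with bounds. fbxb-75 was at 92.2 and 200 CPM and then at 0 and 0.498 CPM (adjusted p = 3.153e-05), and fbxc-25 at 128 and 133 CPM and then at 0 and 0.498 CPM (adjusted p = 0.0002133). Each had 1 read at the bean stage, so the pooled ratios of 190-cell over bean level, 437 and 471, have exact 95% counting intervals of 78.2 to 17278 and 84.4 to 18643. Both bean levels were under the floor, so the size of these ratios is not established. fbxc-20 went the other way, from no read to 63.7 and 61.2 CPM, at least 7.75-fold higher (adjusted p = 0.0001607). The family thus held genes of both directions, but the share called higher was below the background of 4.18%. Fewer of the genes were called lower when either bean library was left out. Fewer were called higher when either 190-cell library was left out. Lower calls numbered 15 in the fit of the 4 libraries alone, 16 with counts scaled to estimated molecules and 14 with the replicate block.

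The BTB gene btb-11 was at 80.1 and 128 CPM and then at 0 in both bean libraries, at least 12.2-fold lower (adjusted p = 0.0001737), and 2 of 8 tested btb genes fell, or 1 when either bean library was left out. Among the sdz genes, named for their dependence on the endoderm and mesoderm factor SKN-1, 5 of 21 tested fell and none rose. sdz-4 was at 58.3 and 112 CPM and then at 0 in both bean libraries, at least 10.03-fold lower (adjusted p = 0.002294), and sdz-5 at 98.6 and 140 CPM and then at 6.12 and 0.498 CPM (log2 fold change −5.19, SE 1.24, adjusted p = 0.01199), −7.79 without bean replicate 1 and −4.24 without replicate 2. The sdz calls numbered 3 without 190-cell replicate 1, 3 without 190-cell replicate 2 and 1 without bean replicate 2. Of 8 tested genes for fatty acid binding proteins 3 fell and 1 rose. lbp-1 was at 2621 and 3385 CPM and then at 632 and 729 CPM (log2 fold change −2.14, SE 0.36, adjusted p = 0.0001846), its neighbour lbp-3 at 536 and 800 CPM and then at 157 and 185 CPM (−1.97, SE 0.43, adjusted p = 0.003469), and lbp-5 rose from 35.2 and 37.5 CPM to 228 and 192 CPM (2.53, SE 0.52, adjusted p = 0.002009).

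In other families the share called higher lay above the background for Patched-related and Hedgehog-related genes and below it for nuclear hormone receptor genes. The Hedgehog-related share rests on only 2 genes, of which wrt-10 is also in the apical matrix list. Of 20 tested Patched-related genes, membrane proteins with a sterol-sensing domain, 5 rose, led by ptr-25 (WBGene00009653, chromosome III, 10488124 to 10500239, plus strand) at 0.206 and 0 CPM and then at 203 and 214 CPM, a ratio of 1364 with a counting interval of 244 to 53937 on 1 read (adjusted p = 3.028e-10). As its 190-cell level was under the floor, the size of that ratio is not established. Of the same 5, ptr-4 had only 3.67 and 4.98 CPM at the bean stage, below the floor, and 390 and 322 CPM at the 2-fold stage. The calls numbered 2 without 190-cell replicate 1 and 1 in the fit of the 4 libraries alone. Of 27 tested Hedgehog-related genes 2 rose, wrt-10 from 53.9 and 83.4 CPM to 482 and 394 CPM (log2 fold change 2.68, SE 0.50, adjusted p = 0.000733) and wrt-5 from 5.56 and 18.5 CPM to 98.0 and 97.5 CPM (3.09, SE 0.55, adjusted p = 0.0003608), or 2.47 and 4.11 without 190-cell replicate 1 and without replicate 2. Of 170 tested nuclear hormone receptor genes 4 rose, a share below the background of 4.18%. Both bean libraries lay above both 190-cell libraries for 48, against 17.6% of all genes tested. Without 190-cell replicate 2 there were 7 such calls, in the fit of the 4 libraries alone 1, and over all alternatives 1 to 8. nhr-127 had no read and then 42.3 and 39.3 CPM, at least 5.06-fold higher (adjusted p = 0.001236).

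In the list for guidance and ventral enclosure signals, which move neurons and epidermal cells, 3 of 27 tested genes rose. The ephrin gene efn-2 was at 8.44 and 3.58 CPM and then at 57.0 and 61.2 CPM (log2 fold change 3.23, SE 0.69, adjusted p = 0.00314), 4.10 without 190-cell replicate 1. The plexin gene plx-2 was at 0 and 4.17 CPM and then at 43.5 and 39.3 CPM (4.67, SE 1.04, adjusted p = 0.007102), or a fitted 9.93 without 190-cell replicate 2, which held its only reads at that stage. The Slit gene slt-1 had no read and then 1.22 and 5.47 CPM, below the floor, with a call lost without 190-cell replicate 1 or bean replicate 2, and 232 and 138 CPM at the 2-fold stage. The list had 6 higher calls without 190-cell replicate 2 and 0 in the fit of the 4 libraries alone.

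Homeobox genes named ceh had 2 calls in each direction among 52 tested. ceh-48, an ONECUT gene, went from no read to 41.6 and 6.97 CPM (at least 3.01-fold higher, adjusted p = 0.0003844), and the PBX-type gene ceh-40 fell from 51.5 and 132 CPM to 0 and 2.99 CPM (log2 fold change −5.84, SE 1.57, adjusted p = 0.02392), a call lost without 190-cell replicate 2 or bean replicate 1. Of 13 tested forkhead genes 1 rose, fkh-8, a factor of ciliated neurons, from no read to 31.2 and 2.99 CPM (at least 2.12-fold higher, adjusted p = 0.004985), and it was not called without replicate 1 of either stage. None of 8 tested T-box genes was called by edgeR or DESeq2, and 2 were lower at an unadjusted p under 0.05. Genes of the mitochondrial genome, which had the highest levels of all, were not called in any of 12 cases by edgeR or DESeq2, with 1 higher at an unadjusted p under 0.05 and a median of 0.01. COX2 was at 24055 and 20592 CPM and then at 26210 and 18890 CPM (adjusted p = 1).

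The same stage comparison was available in miR-51Fam null embryos, in libraries that the wild-type comparison does not use, although the 2 comparisons share the model and its estimate of the spread. There, by edgeR, 558 genes (4.63%) were higher and 83 (0.688%) lower at the bean stage, 5.31% in all. One of the null 190-cell libraries held 11081 reads in all, so that side of the comparison rests mostly on 1 library. Of the 504 genes that rose in wild type, 335 (66.5%) were also called higher in the null, which is 60.0% of the null calls. Of the 102 that fell, 42 (41.2%) were also called lower in the null, 50.6% of the null calls. Among the called genes with reads in all 4 groups, the log2 fold change in the null had the same sign for 246 of 246 higher and 67 of 70 lower genes. These counts leave out called genes with no read in a group. The share of same signs over all genes tested was not computed, so they have no background. The null values are shown for the leading genes: 5.07 for sqt-3, 3.12 for dao-2, 5.58 for ajm-1, 3.86 for cki-1, −1.95 for zip-8 and −4.45 for F09F7.6. The ces-2 level in the null was 0 and 3.37 CPM at the 190-cell stage and 1984 and 2427 CPM at the bean stage.

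**Figure D5:**
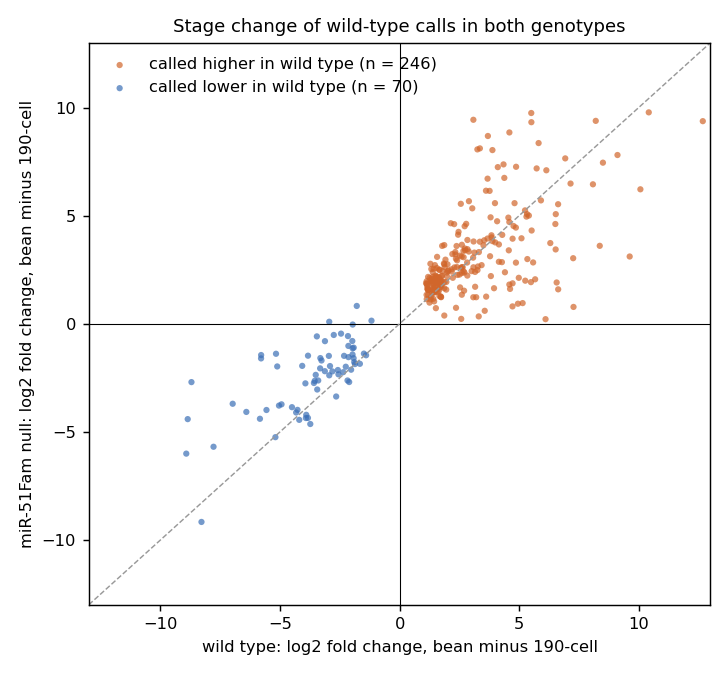
Log2 fold change from the 190-cell to the bean stage in miR-51Fam null embryos (vertical) against that in wild-type embryos (horizontal) for the genes called in wild type that had reads in all 4 groups. Orange points rose (n = 246) and blue points fell (n = 70) in wild type, and the dashed line marks equal change. All 246 orange points lie above 0 on the vertical axis, and 67 of the 70 blue points lie below it.

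The size of the stage change itself was compared between genotypes with an interaction term, which called 11 genes (0.0912% of those tested) in edgeR. Of the genes named above, mlt-11 and let-2 were among the 11. mlt-11 had 0 and 15.7 CPM in the null 190-cell libraries against 0 and 0.596 CPM in wild type, and similar bean levels (123 and 131 CPM in the null), giving a difference of −6.51 (SE 1.13, adjusted p = 0.0137). let-2 had 0 and 0.561 CPM in the null 190-cell libraries and 453 and 372 CPM in the null bean libraries, giving a difference of 6.35 (SE 1.07, adjusted p = 0.01337). In both genes the genotypes thus differed mainly in the 190-cell values, where 1 null library was shallow.

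Values of the wild-type 2-fold libraries are given beside these changes with no test, since a comparison with them would share the bean libraries. Levels of sqt-3, dpy-7, mlt-8, ptr-25, hsp-12.1, tni-1, myo-3, mig-6 and let-2 were higher in both 2-fold libraries than in both bean libraries, for example 1080 and 744 CPM for tni-1 and 1392 and 1117 CPM for let-2. ces-1 and ces-2 were lower in both, as was cki-1. skr-14 reached 12.5 and 2.42 CPM and T05D4.2 0 in both 2-fold libraries, while F09F7.6 was back at 297 and 169 CPM. The genes that changed between the 190-cell and bean stages thus included steady, transient and returning patterns.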

How the data were processed

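Polyadenylated RNA of 12 libraries in 6 groups of 2 had been sequenced by QuantSeq. Per the labels and methods, the authors extracted UMIs with UMI-tools, mapped reads to WBcel235 with STAR and deposited 1 file per library of raw HTSeq counts for 20362 genes, not normalised. The annotation release, strand setting and tool versions are not given in the sources used here. Of the reads in the 4 files used, 35.6% to 53.7% were assigned to genes, 4.58% to 5.85% lay outside genes and 40.6% to 59.8% mapped to several places. Those summary lines were left out of library sizes and tests. Removal of UMI duplicates is described in the methods, but reads exceeded estimated molecules 7.24-fold to 34.6-fold, so the values were treated as reads that can copy a molecule.

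A gene was tested if its counts summed to at least 20 over all libraries (12062 genes). One model with a mean per group was fitted to all 12 libraries in edgeR 4.0.16 (R 4.3.3) with TMM scaling. Contrasts were tested two-sided by the quasi-likelihood F test with robust dispersions, with Benjamini-Hochberg adjustment over all genes tested and a threshold of 0.05. The study names DESeq2 with no design, and DESeq2 1.42.0 served as an alternative. Contrasts were bean minus 190-cell in wild type and in miR-51Fam null, and their difference. With 2 against 2 libraries an exact permutation test of a single value cannot reach the threshold, so none was used. SE was derived from F, and is not given where a stage had no read. Levels are CPM on TMM-scaled library sizes, and ± values are SD over 2 libraries. Reads per molecule were estimated on genes whose level elsewhere was between 1 and 3 CPM. The estimate is mean reads over the Poisson mean implied by the share of zeros, and molecules per library are reads divided by it. On simulated libraries the estimate lay above the true value, so molecule numbers may be too low and floors too high. Folds given as "at least" may then be too low. The test itself was also tested on simulated data, and a gene that was not called is not shown to be unchanged.

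The comparison, the 34 gene lists, the alternatives and the choice of named genes were made with earlier results of these data known, and 9 further families (Skp1-related, F-box, btb, sdz, innexin, cuticlin-like, lbp, tetraspanin and hsp-12 genes) after their values had been seen. No set test was run. Named were, in each direction, the 12 called genes with the smallest p and a mean of 50 CPM or more at the higher stage whose stages do not overlap, the 3 called members of each list with the smallest p, in a list with no call the 2 members of highest level, the 3 genes of highest level at each stage, and a set of known regulators. Of the listed symbols 20 were not found. Gene names and positions are from the Ensembl annotation of WBcel235, those of mitochondrial genes from RefSeq. Alternatives were DESeq2 size factors, TMMwsp scaling, no filter, a total of 100 or more counts, the DESeq2 Wald test, the 4 libraries or the 6 wild-type libraries alone, the replicate number as a block, counts scaled to molecules, and leaving out single libraries.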

Additional observations from a re-analysis of the deposited data

Results flagged for a closer look

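In 11 genes the change from the 190-cell to the bean stage differed between miR-51Fam null and wild-type embryos by the interaction test of edgeR (adjusted p under 0.05), given as the log2 change in the null minus that in wild type. The difference was −6.51 for mlt-11, −7.23 for Y37D8A.16, −6.50 for Y71H2B.4 and −13.54 for T19A5.3. For T19A5.3 the test rests on few molecules, as it had 9.95 CPM in bean replicate 2 and no read in the other 3 wild-type libraries. In the other 7 genes the difference was positive: 6.35 for let-2, 6.44 for Y56A3A.7, 6.53 for cpr-6, 5.57 for lmd-3, 10.45 for T07C4.3, 11.03 for fbxl-3 and 7.30 for enol-1. All 7 were at 0 in null 190-cell replicate 1, which held 11081 reads, and at 1.12 CPM or less in replicate 2. The glycolytic gene enol-1, for example, was at 288 and 104 CPM in the wild-type 190-cell libraries, at 203 and 163 CPM in the bean libraries, at 0 and 0.561 CPM in the null 190-cell libraries and at 110 and 64.6 CPM in the null bean libraries. The part of that depth in these differences was not tested beyond leaving out the shallow library, after which 11 genes were called, 7 of them the same. The values of Y37D8A.16, T19A5.3, T07C4.3 and fbxl-3 are fitted against a group with no read and are no bounds. Groups of 2 libraries were too small to look for single outlying values.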

How the results depend on the processing

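The 504 higher and 102 lower calls in wild type became 339 to 590 and 39 to 89 when 1 wild-type library was left out, the lowest lower count being that without bean replicate 1. Lower genes numbered 169 with no filter, 222 with the 4 libraries alone, 188 with the replicate block and 259 with counts scaled to molecules, with 695, 352, 631 and 482 higher genes beside them. Same-numbered libraries of the 2 stages did not deviate together (correlation across genes −0.00568). With 2 libraries a stage this cannot decide whether the numbers pair them. Without the shallow null 190-cell replicate 1, 520 and 107 were called. In the null, lower calls were 83, but 149 with the DESeq2 Wald test and 175 with counts scaled to molecules. The interaction gave 5 genes with TMMwsp scaling, 24 with the DESeq2 Wald test and 1 with counts scaled to molecules, against 11. Over 1794 alternative values for 129 named genes none changed direction among called genes, 1646 stayed on their side of the threshold, 122 lost and 26 gained a call, and 79 genes held throughout. The promoter search was not run because no sequence was used here. Depth limits the lower range: a gene under 8.06 CPM at the 190-cell stage or 8.49 CPM at the bean stage rests on fewer than 3 estimated molecules per stage. Each stage had 2 libraries, so the spread was largely borrowed from the other groups.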

Other observations

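Some families outside the lists, drawn up after their values had been seen, held further genes that rose. Of 23 tested innexin genes, which encode gap junction subunits, 5 rose and none fell. inx-13 was at 0 and 5.96 CPM in the 190-cell libraries and at 165 and 110 CPM in the bean libraries (log2 fold change 5.88, SE 1.12, adjusted p = 0.006091 in edgeR), and inx-15 at 0 and 4.17 CPM and then at 60.01 and 105 CPM (5.73, SE 0.99, adjusted p = 0.000733). Without 190-cell replicate 2, which held their only reads at that stage, the fitted values were 11.66 and 10.92. The fit of the 4 libraries alone called 1 innexin.

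Of 23 tested cuticlin-like genes, zona pellucida domain proteins of the cuticle, 5 rose and none fell. cutl-16 had no read in the 190-cell libraries and 191 and 131 CPM in the bean libraries, at least 20.0-fold higher (adjusted p = 9.34e-08), and cutl-28 no read and then 47.2 and 45.3 CPM, at least 5.73-fold higher (adjusted p = 1.32e-05). cutl-16 was lower again at the 2-fold stage, at 67.4 and 45.98 CPM, and cutl-28 higher, at 248 and 184 CPM. The calls numbered 2 without 190-cell replicate 1 and 3 without bean replicate 1. Of 14 tested tetraspanin genes 4 rose, among them tsp-14 from 0.823 and 6.55 CPM to 45.3 and 40.8 CPM (log2 fold change 3.68, SE 0.93, adjusted p = 0.01312), and none was called without 190-cell replicate 1.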
